A study of Mus musculus with 8 samples.

Results

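*Adam*, *Adamts*, *Prss*, *Klk* and *Tmprss* genes were followed in cells enriched for round spermatids of mice with and without the tudor domain protein TDRD6. Members were all rows of 3 deposited transcript tables whose gene symbol begins with Adam and a digit, Adamts, Prss and a digit, Klk or Tmprss, with each transcript identifier counted once. This rule uses names and no measured value, and it gave 74 transcripts of 60 genes among 19077 transcripts and 12200 gene names. RNA was sequenced from 4 *Tdrd6*-/- and 4 *Tdrd6*+/- testis samples of postnatal day 26 on a C57BL/6 background. All 8 samples carry the targeted allele, in which human CD4 is joined in frame to the *Tdrd6* start codon, and cells were pulled out by this surface tag with magnetic beads. The control is therefore a heterozygote that carries the vector too. The selection follows activity of the *Tdrd6* promoter, so other germ cells can be present. By flow cytometry the paper reports mostly round spermatids, in about the same share in both genotypes, and a similar fraction of spermatocytes. The authors combined the 4 libraries of a genotype into 1 FPKM value (fragments scaled to transcript length in kilobases and to library size) for each transcript. Values of single libraries were not analysed here, so no difference below has a replicate check or a test.

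ADAM proteins are membrane-anchored proteins with a metalloprotease and a disintegrin domain. In the mouse a large group of them is made only or mainly in the testis, where they are carried on sperm and help it to pass into the oviduct and to bind the egg coat. The PRSS proteins are trypsin-like serine proteases, of which many in the mouse are made in spermatocytes and spermatids, on the cell surface or in the acrosome. Kallikreins are secreted serine proteases, and the *Klk1b* genes are a rodent expansion of the tissue kallikrein *Klk1*. TMPRSS proteins are serine proteases anchored in the membrane, and ADAMTS proteins are secreted metalloproteases of the extracellular matrix.

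Coding sequence around the active site shows which kind of protease a member encodes. In serine proteases the catalytic serine stands in the motif glycine, aspartate, serine, glycine, glycine, and the codon of that serine is in capitals in the following coding sequences (GENCODE M1, mouse build NCBIM37, the same assembly as mm9, 5′ to 3′). They are shown to set the active sites of members that were lower (*Prss52*, *Prss55*, *Klk1b8* and *Klk1b5*) beside those of members within 1.5-fold.
*Prss39*: tgccgaggagacTCTgggggccccctg
*Prss21*: tgctttggtgacTCGggaggacccttg
*Prss52*: tgccagggcgacAGTggaggagctctc
*Prss55*: tgccagggtgacAGTgggggaccgctt
*Tmprss12*: tgcaggggtgacAGCgggggaccacta
*Klk1b8*: tgcaagggtgacTCCggaggcccattg
*Klk1b5*: tgtatgggtgacTCAggaggcccactg
*Klk1b7-ps*: tgcaagggagacTCAggaggcccactg
The motif was found in the translated coding sequence of 20 member genes, among them all 8 *Klk* genes and 10 of 22 *Prss* genes. It is present in 0.440% of all 55414 coding sequences of the annotation. The serine is written with a codon of the form TCN in 17 of these genes and with AGT or AGC in 3, *Prss52*, *Prss55* and *Tmprss12*. *Prss52* and *Prss55* are neighbours on chromosome 14. Among the 12 *Prss* genes in which these letters were not found are *Prss37*, *Prss51*, *Prss54* and *Prss58*.
In metalloproteases the zinc-binding motif of the metzincin family holds zinc by histidines, and the codons of its first pair are in capitals here.
*Adam1a*: CACgagctcgggCAC
*Adam24*: CATgagataggtCAC
*Adam30*: CATgaattgggcCAT
The full motif was found in 13 of 24 *Adam* genes and in 0.227% of all coding sequences. *Adam2*, *Adam3*, *Adam5*, *Adam18*, *Adam32* and the *Adam6* copies were among the 11 *Adam* genes without it, so that the most abundant sperm ADAM transcripts lie in that group.

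Most of the abundant members were *Prss* and *Adam* genes, which also make up most of the member genes. In *Tdrd6*+/- cells 33 of the 60 genes (55.0%) had a transcript with an FPKM of at least 10, against 40.3% of all 12200 genes. Of these, 15 were from the 22 *Prss*, 13 from the 24 *Adam*, 4 from the 8 *Klk* and 1 from the 2 *Tmprss* genes. At an FPKM of at least 100 the share was 11.7%, or 7 genes, against 8.72% of all genes. In order these 7 were *Adam3*, *Prss39*, *Adam2*, *Adam5*, *Prss46*, *Prss21* and *Prss54*. The place of *Adam3* rests on a transcript of 249 nt, a length at which FPKM is imprecise. Its full-length transcript of 2736 nt had an FPKM of 179 in *Tdrd6*+/- cells, which lies between *Adam2* and *Adam5*. With 1 pooled value per genotype it cannot be said which neighbours in this order differ.
The widely expressed ADAM genes stood at the other end. *Adam10* and *Adam17*, the main sheddases of cell surface proteins in somatic tissues, had FPKM values of 0.455 and 1.68 in *Tdrd6*+/- cells. None of the 4 ADAMTS and ADAMTS-like genes (*Adamts9*, *Adamts17*, *Adamtsl1* and *Adamtsl5*) reached 1. No member was listed at 0, but of all 19077 transcripts only 43 were at 0 in either genotype.

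**Figure D1:**
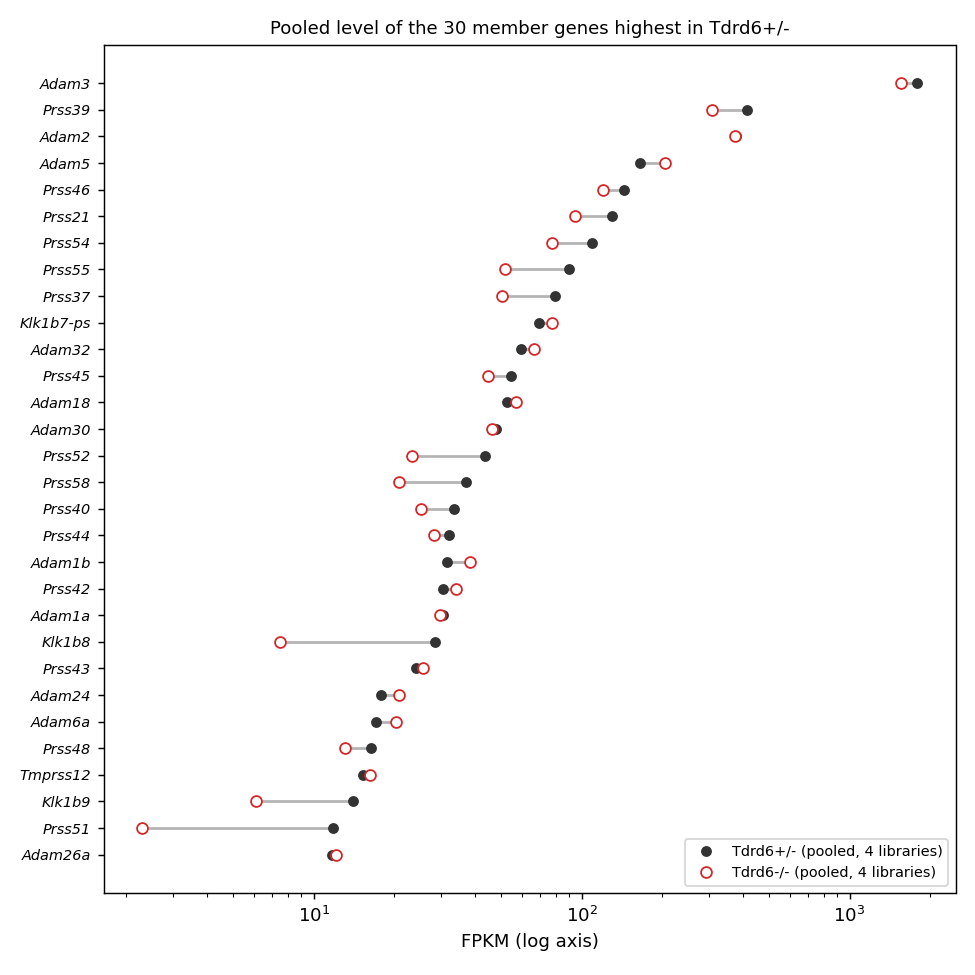
Pooled FPKM (horizontal log axis) of the 30 member genes highest in Tdrd6+/- cells, each by its transcript of the highest mean FPKM, with filled points for Tdrd6+/- and open points for Tdrd6-/-. The points nearly coincide for Adam2 (378 and 375), and the open points of Prss51, Klk1b8 and Klk1b9 lie far to the left of the filled ones.

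*Tdrd6* itself checked the labels. Its main transcript had an FPKM of 40.6 in *Tdrd6*+/- and 1.29 in *Tdrd6*-/- cells. The cell type agreed in part with the label. All 8 markers of round spermatids were listed, with FPKM from 29.3 to 341 in *Tdrd6*+/- cells. The 7 pachytene spermatocyte markers, of which some stay on in spermatids, had values from 9.49 to 5634. Spermatogonial markers lay between 0.240 and 1.40 (5 of 6 listed). Of 7 Sertoli cell markers 4 were listed, from 0.353 to 66.2, and of 6 blood and immune markers 1, at 0.497. Few transcripts are listed at 0, so a marker that is not listed has no value here and cannot be called absent. In bulk RNA fewer cells of a type and less RNA per cell cannot be told apart, and this holds for every difference below.

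Differences are given as the log2 ratio of *Tdrd6*-/- over *Tdrd6*+/- FPKM with 0.1 added to each value. A transcript was counted as higher or lower where the ratio passed 1.5-fold (0.58 on the log2 scale), and only if either genotype reached an FPKM of 1. Of the 74 member transcripts 61, from 51 genes, met that minimum. Among these 14 (23.0%) were lower in *Tdrd6*-/- cells and 1 (1.64%) was higher, against 9.57% lower and 9.00% higher (18.6% in either direction) over the 15596 transcripts of the series that met the minimum. The median log2 ratio was -0.08 over the members and 0.00319 over all transcripts. The families did not share this median. It was 0.18 for the 26 ADAM transcripts, -0.46 for the 25 PRSS transcripts, -1.17 for the 8 KLK transcripts and 0.07 for the 2 transcripts of *Tmprss12*.
The 13 transcripts under the minimum were *Adam9*, *Adam10*, *Adam22*, a minor transcript each of *Adam15*, *Adam17* and *Prss45*, the 4 ADAMTS members, *Prss57* and both transcripts of *Tmprss9*.

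**Figure D2:**
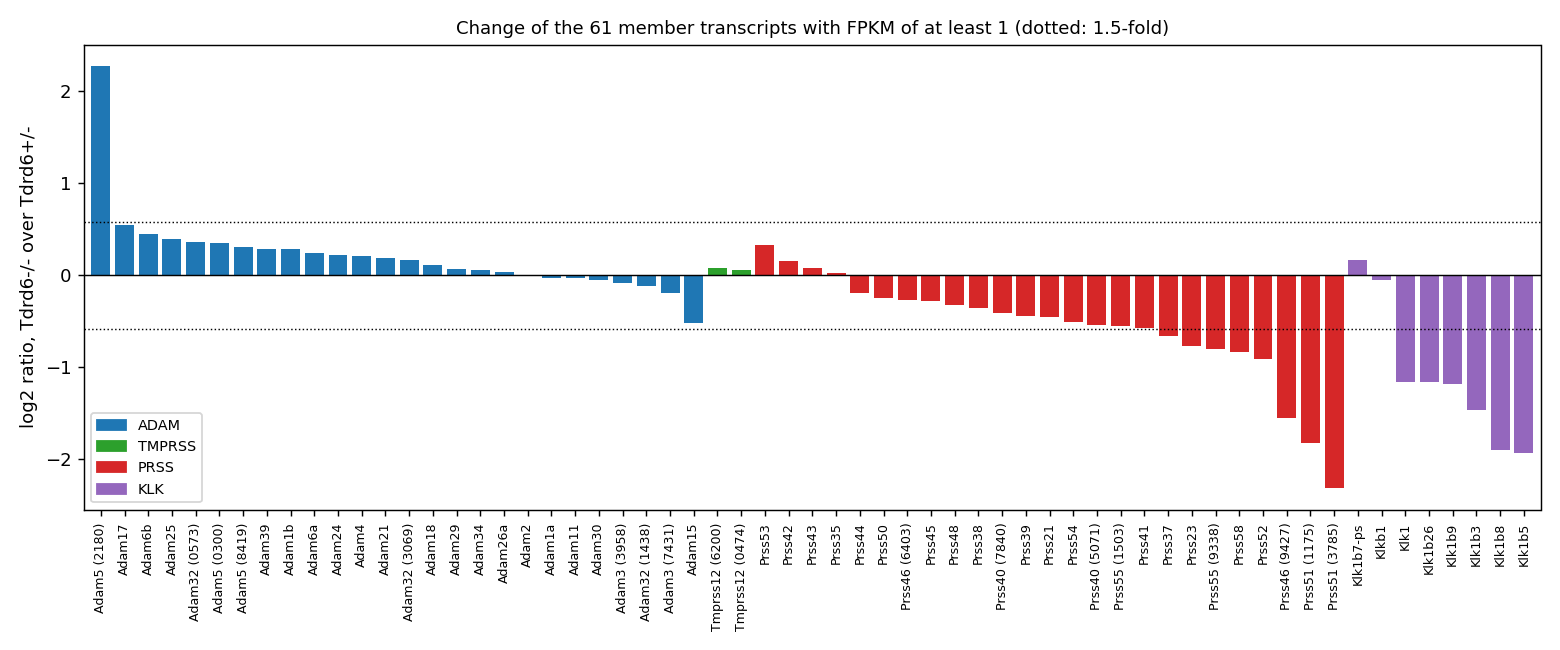
Log2 ratio of Tdrd6-/- over Tdrd6+/- FPKM (vertical axis) for each of the 61 member transcripts with an FPKM of at least 1, coloured by family, with dotted lines at 1.5-fold and the last 4 digits of the identifier where a gene has several. All ADAM bars except those of Adam15 (-0.52) and of 1 Adam5 transcript (2.28) lie between -0.2 and 0.6, whereas 21 of 25 PRSS bars and 7 of 8 KLK bars are below 0.

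The kallikreins had the lowest median of the families, and all their lower members lie in 1 cluster. Its 7 listed genes lie on the plus strand of chromosome 7 from 51200382 to 51484987 (mm9). Of these genes 6 were lower in *Tdrd6*-/- cells by more than 1.5-fold, against 9.57% of all transcripts and 16.4% of those of 800 to 1500 nt. *Klk1b8* had an FPKM of 28.3 in *Tdrd6*+/- and 7.53 in *Tdrd6*-/- cells, a log2 ratio of -1.90. *Klk1b9* had 14.0 and 6.12 (-1.18). *Klk1b26* had 11.1 and 4.92 (-1.16). All 3 were above an FPKM of 10 in the control and below it in the knockout.
The other 3 were low in both genotypes. *Klk1b5* had an FPKM of 2.23 in *Tdrd6*+/- and 0.514 in *Tdrd6*-/- cells, a log2 ratio of -1.93. *Klk1b3*, the gamma subunit of the nerve growth factor complex of the salivary gland, had 1.99 and 0.660 (-1.46). *Klk1* itself, the tissue kallikrein that releases kinins, had 2.26 and 0.961 (-1.15). These 3 met the minimum only through *Tdrd6*+/- cells, where they are higher, so the minimum itself favoured a lower call for them. Of the 4 *Klk* genes with an FPKM of at least 10 in *Tdrd6*+/- cells 3 were lower. A cut on the control value alone also favours lower calls. Over all transcripts that pass this cut 9.53% were lower and 1.97% higher.
The exception in the cluster was *Klk1b7-ps*, named as a pseudogene. Its FPKM was 69.1 in *Tdrd6*+/- and 77.9 in *Tdrd6*-/- cells, a log2 ratio of 0.17. Its transcript of 448 nt is the shortest of the cluster, and the others have 859 to 888 nt. No 75-base window of it was found in a coding transcript of another gene. *Klkb1*, plasma prekallikrein, is a relative outside the cluster, on chromosome 8, and had an FPKM of 1.59 and 1.53 (-0.05).
The copies are alike, and reads can be split between them. *Klk1* and *Klk1b5* are 95.2% identical in coding sequence, and *Klk1b26* and *Klk1b8* 87.6% over 378 nt. Of all 75-base windows 18.02% of *Klk1b5*, 15.8% of *Klk1* and 8.28% of *Klk1b8* also occur in a coding transcript of another gene, so their FPKM is uncertain to that extent. *Klk1b3* and *Klk1b9* share 2.83% and 1.76% of windows, and their log2 ratios of -1.46 and -1.18 lie within the range of the others. Without every transcript that shares over 5% of its windows the KLK median was -0.62, from *Klk1b3*, *Klk1b9*, *Klk1b7-ps* and *Klkb1*. Leydig cells of the mouse are known to make some *Klk1b* transcripts. The 5 listed of 6 Leydig cell markers had a summed FPKM of 26.8 in *Tdrd6*+/- and 25.7 in *Tdrd6*-/- cells, of which *Insl3* made up 19.6 and 16.7. Their median log2 ratio was 0.31, with none past 1.5-fold. Leydig cell markers were thus listed after selection by the CD4 tag, and the part of Leydig cells in the kallikrein values was not tested.

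A second neighbourhood that was low as a whole lies on chromosome 14 from 64694282 to 64732592 (mm9) and holds *Prss55*, *Prss51* and *Prss52*. *Prss51* had the lowest ratio of any member. Its transcript of 961 nt, from 64705071 to 64716507 on the plus strand, had an FPKM of 11.8 in *Tdrd6*+/- and 2.30 in *Tdrd6*-/- cells, which is 19.4% of the control and a log2 ratio of -2.32. Its other transcript had 6.50 and 1.76 (-1.82). *Prss51* is among the transcripts with short 3′ UTRs that the study followed singly.
*Prss52* had an FPKM of 43.7 in *Tdrd6*+/- and 23.2 in *Tdrd6*-/- cells (-0.91). *Prss55*, a protease that mouse sperm need to enter the oviduct, had 90.1 and 51.6 for its main transcript (-0.80). Its shorter reading frame had 40.4 and 27.7 (-0.55), just within the threshold. *Prss55* is on the minus strand and the others on the plus strand. No exon of one overlapped an exon of another. The library kit keeps the strand, and whether strand was used in counting is not given in the sources used here.

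Further PRSS genes that were lower lie elsewhere in the genome. *Prss37*, a sperm protein that mice need for the maturation of ADAM3, had an FPKM of 79.6 in *Tdrd6*+/- and 50.4 in *Tdrd6*-/- cells (-0.66). *Prss58* had 37.1 and 20.8 (-0.83). *Prss23*, which unlike the others is widely expressed and has a long 3′ UTR of 1926 nt, had 2.65 and 1.52 (-0.76). A minor transcript of *Prss46* had 1.253 and 0.363 (-1.55), while its main transcript had 144 and 120 (-0.27). The minor one also met the minimum only through *Tdrd6*+/- cells. In all, 8 of 25 PRSS transcripts (32.0%), from 7 genes, were lower by more than 1.5-fold and none was higher. Over all transcripts 9.57% were lower and 9.00% higher, and of those of 800 to 1500 nt 16.4% were lower.
The 4 PRSS genes with an FPKM of at least 100 were within the threshold, with ratios below 0, and so were several less abundant ones. *Prss39*, a protease of the acrosome, had an FPKM of 416 in *Tdrd6*+/- and 306 in *Tdrd6*-/- cells (-0.44). Its relative *Prss40*, which with it spans 62.5 kb of chromosome 1, had 33.6 and 25.3 (-0.41), and a second *Prss40* transcript had 12.1 and 8.25 (-0.54). *Prss21*, testisin, which is held on the sperm surface by a lipid anchor, had 130 and 94.8 (-0.46), and its neighbour *Prss41* had 2.90 and 1.92 (-0.57). *Prss54* had 110 and 77.3 (-0.50). *Prss38* had 9.19 and 7.14 (-0.36) and *Prss48* had 16.4 and 13.1 (-0.32). Of the 25 PRSS transcripts 21 (84.0%) were below 0, against 49.7% of all transcripts. With a *Tdrd6*+/- FPKM of at least 10, a cut that itself favours lower ratios, it was 88.2% of 17 PRSS transcripts against 64.5% of all.
The cluster of testis proteases on chromosome 9, from 110700670 to 110767132 (mm9), had no gene past 1.5-fold by its main transcript. Mouse *Prss42*, *Prss43* and *Prss44* are known from meiotic and later germ cells. *Prss42* had an FPKM of 30.5 in *Tdrd6*+/- and 34.1 in *Tdrd6*-/- cells (0.16), *Prss43* had 24.1 and 25.6 (0.09) and *Prss44* had 32.0 and 28.1 (-0.19). *Prss45* had 54.3 and 44.7 (-0.28), and *Prss50* had 2.99 and 2.50 (-0.25). With the main transcript of *Prss46* the 6 genes ranged from -0.28 to 0.16.
Outside these groups *Prss53* had 1.36 and 1.74 (0.33) and *Prss35* had 1.16 and 1.18 (0.03). Of the windows of *Prss53* 75.9% are shared with *Vkorc1*, so reads can be split between these genes.

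**Figure D3:**
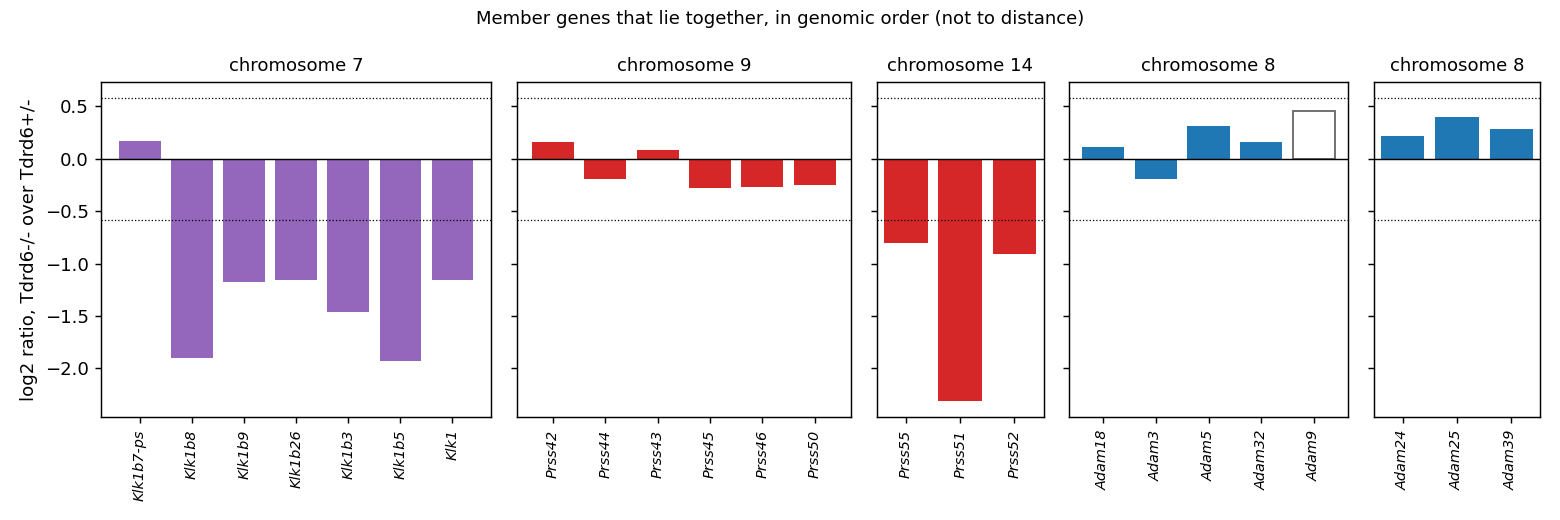
Log2 ratio of Tdrd6-/- over Tdrd6+/- FPKM (vertical axis) for member genes that lie within 200 kb of each other, in genomic order, for groups of at least 3 genes (white bar: FPKM under 1, dotted lines: 1.5-fold). The kallikrein genes of chromosome 7 and the Prss55 to Prss52 group of chromosome 14 lie below the lower line except for Klk1b7-ps, and the groups of chromosomes 8 and 9 lie between the lines.

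No sperm ADAM gene passed 1.5-fold by its main transcript. Of 23 sperm ADAM symbols, among them the older *Adam6* and *Adam26* beside their copies, 18 were listed and all 18 met the minimum, with log2 ratios from -0.19 to 0.45 and a median of 0.18. *Adam2*, fertilin beta, the partner that ADAM1 and ADAM3 need on the sperm surface, had an FPKM of 378 in *Tdrd6*+/- and 375 in *Tdrd6*-/- cells (-0.01). *Adam3*, which sperm of the mouse need to pass into the oviduct, had 179 and 169 for its full-length transcript (-0.08) and 1782 and 1558 for the transcript of 249 nt (-0.19). *Adam1a* and *Adam1b*, the fertilin alpha genes, had 30.3 and 29.8 (-0.03) and 31.5 and 38.4 (0.28), and 33.7% and 36.2% of their windows occur in the other.
*Adam18* had 52.7 and 56.8 (0.11) and *Adam30* had 48.0 and 46.4 (-0.05). The full-length transcript of *Adam32* had 50.7 and 46.9 (-0.11), and its transcripts of 447 and 410 nt had 59.5 and 66.7 (0.16) and 7.40 and 9.56 (0.36).
*Adam5* was the only member with a transcript that was higher by more than 1.5-fold. This transcript of 2117 nt, whose coding sequence does not begin with a start codon in the annotation, had an FPKM of 4.05 in *Tdrd6*+/- and 20.04 in *Tdrd6*-/- cells (2.28). The other *Adam5* transcripts had 165 and 204 (0.31) and 116 and 148 (0.36), and the sum of the 3 had a log2 ratio of 0.39. The gene as a whole was thus within 1.5-fold.
The other sperm ADAM genes, whose transcripts have 1 or 2 exons, had log2 ratios from 0.04 to 0.45. On chromosome 8, from 41760448 to 41912215 (mm9), *Adam24* had 17.8 and 20.8 (0.22), *Adam25* had 5.67 and 7.49 (0.40) and *Adam39* had 10.4 and 12.7 (0.29). *Adam26a* had 11.8 and 12.1 (0.04), *Adam34* had 5.73 and 5.95 (0.05) and *Adam29* had 7.82 and 8.18 (0.06). On chromosome 12 *Adam4* had 10.4 and 12.1 (0.21) and *Adam21* had 8.32 and 9.52 (0.19). *Adam6a* and *Adam6b*, which lie inside the immunoglobulin heavy chain locus and are needed for fertility of male mice, had 17.2 and 20.4 (0.25) and 9.43 and 12.9 (0.45). *Adam25* and *Adam39* are 96.1% identical in coding sequence and *Adam6a* and *Adam6b* 94.9%, and reads can be split between such copies.
Among the ADAM genes outside the sperm group, *Adam17* had 1.68 and 2.51 (0.55), *Adam15* had 2.79 and 1.91 (-0.52) and *Adam11* had 2.79 and 2.73 (-0.03). *Tmprss12*, which male mice need for fertility, had 15.3 and 16.2 (0.08) and, for a shorter transcript, 4.82 and 5.03 (0.06).
Members with and without the active site motif, taken by the longest coding transcript of a gene, overlapped in their ratios. The median log2 ratio was 0.19 for the 11 *Adam* genes with the zinc motif that met the minimum and 0.09 for the 10 without it. It was -0.42 for the 10 *Prss* genes with the serine motif and -0.50 for the 11 without it. *Prss46* entered the latter by its minor transcript (-1.55), since its main transcript (-0.27) has no coding sequence in the annotation. The minor transcript met the minimum only through *Tdrd6*+/- cells, so no order is read between these *Prss* medians.

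The members nearest the 1.5-fold threshold lay close on both sides of it. Just past it were *Prss37* (-0.66) and *Prss23* (-0.76), and just within it were *Prss41* (-0.57) and *Adam17* (0.55).

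Transcript length moved with the ratios over all transcripts and over PRSS, but not within ADAM. The PRSS transcripts had a median length of 1239 nt, the KLK transcripts 869.5 nt and the ADAM transcripts 2529 nt. Over all 15448 transcripts with a known length the log2 ratio and the length had a Spearman correlation of 0.45, as a description across transcripts of the same libraries, and over the 24 PRSS transcripts it was 0.66. Over the 26 ADAM transcripts it was -0.04. Among all transcripts of 800 to 1500 nt the median log2 ratio was -0.24, with 16.4% lower by more than 1.5-fold and 74.2% below 0. The 17 PRSS transcripts of that length had a median of -0.55, and 7 of them were lower by more than 1.5-fold. The 7 PRSS transcripts over 1500 nt had a median of 0.03. Among all transcripts of 2000 to 3500 nt, the range of most ADAM transcripts, the median was 0.07.
Against the median of transcripts of like length, in 20 bins, the family medians were 0.15 for ADAM, -0.26 for PRSS and -0.89 for KLK. All 17 PRSS transcripts of 800 to 1500 nt lay below the median of their bin. Of the 14 lower members 11 were still more than 1.5-fold below it, and *Prss37*, *Prss58* and the main *Prss55* transcript were not. Of the 11, *Klk1*, *Klk1b3*, *Klk1b5* and the minor *Prss46* transcript had met the minimum only through *Tdrd6*+/- cells. Against the medians of their bins, 12 of 60 members were lower by more than 1.5-fold and 2 were higher. Of all 15448 transcripts 7.64% were lower and 7.26% higher. On this scale *Adam15* was also lower (-0.65) and the *Adam32* transcript of 410 nt higher (0.73).

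**Figure D4:**
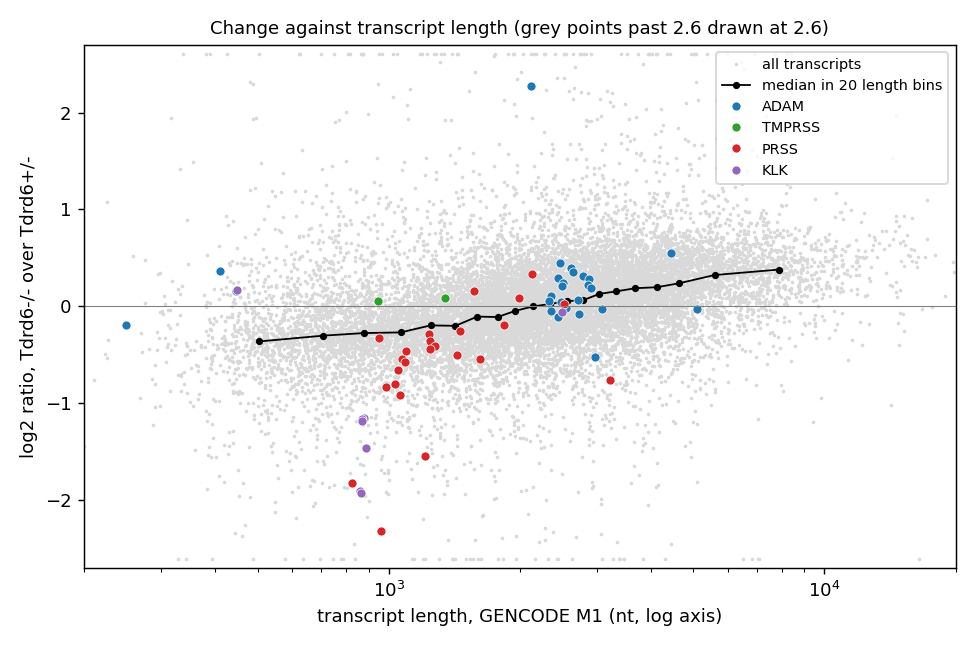
Log2 ratio of Tdrd6-/- over Tdrd6+/- FPKM (vertical axis) against transcript length (horizontal log axis) for all transcripts with an FPKM of at least 1 (grey), the median of 20 length bins (black line) and the member families (coloured). The PRSS and KLK points of about 800 to 1500 nt lie below the black line, and the ADAM points of 2000 to 3500 nt lie around and mostly above it.

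PRSS ratios were lower in the short than in the medium 3′ UTR table, but the long table did not continue this order. Of the 74 member transcripts 53 are listed only with short 3′ UTRs (up to 350 nt), 11 only as medium and 7 only as long (over 1500 nt), and 3 are in several tables. The 18 short 3′ UTR PRSS transcripts that met the minimum had a median of -0.52 and were all below 0, against a median of -0.15 and 62.2% below 0 over the whole short table. Of these 18, 7 were lower by more than 1.5-fold, against 14.7% of the short table. The 6 medium ones had a median of 0.06. Apart from the main *Prss46* transcript, whose length is not known, the 18 are the 17 transcripts of 800 to 1500 nt above. The 6 medium ones are all longer than 1500 nt. Within PRSS the patterns by length and by short or medium 3′ UTR are therefore not separate results. The only PRSS transcript of the long table that met the minimum, that of *Prss23*, had -0.76. The 3 members listed only as long that met it had a median of -0.03, against 0.20 over the whole long table. The 22 short 3′ UTR ADAM transcripts had a median of 0.14.
Markers of late spermatids were also lower. All 8 were listed, their summed FPKM was 21339 in *Tdrd6*+/- and 5931 in *Tdrd6*-/- cells, 6 were lower by more than 1.5-fold and their median log2 ratio was -1.37, with none at 0. The 8 round spermatid markers had a median of -0.41 with 3 lower, and the 7 pachytene markers one of 0.30 with none past 1.5-fold. Of the 5 listed spermatogonial markers 3 met the minimum, with a median of -0.95, and *Sohlh1* (-1.26) and *Uchl1* (-0.95) were lower. *Sohlh1* and *Uchl1* met the minimum only through *Tdrd6*+/- cells, so the minimum itself favoured a lower call for them. The part of stage composition, transcript length and 3′ UTR length in the protease ratios was not tested.

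Genes that act with these proteases were read from lists made by their known function. Of 18 genes for the maturation of ADAM3 and its partners, 15 were listed and all met the minimum, and 2 were lower, 1 was higher and 12 were within 1.5-fold, with a median log2 ratio of -0.23. The lower ones were *Calr3*, a calreticulin of the testis needed for ADAM3 folding, with an FPKM of 59.6 in *Tdrd6*+/- and 31.0 in *Tdrd6*-/- cells (-0.94), and *Tpst2*, a tyrosine sulfotransferase, with 1.86 and 0.397 (-1.98). *Tpst2* met the minimum only through *Tdrd6*+/- cells, so the minimum itself favoured a lower call for it. The higher one was *Canx*, the chaperone calnexin, with 15.8 and 25.5 (0.69). *Clgn*, calmegin, the testis chaperone of the fertilin and ADAM3 proteins, had 133 and 174 (0.38), and *Ace*, whose testis form is needed for the surface placement of ADAM3, had 101 and 69.1 (-0.55). *Pcsk4*, a proprotein convertase of sperm, had 88.8 and 65.1 (-0.45).
Of 20 symbols around the acrosomal proteases, of which 2 stand for equatorin, 18 were listed and 17 met the minimum, and 4 were lower, none was higher and 13 were within 1.5-fold, with a median of -0.32. The lower ones were *Cst8* (-0.88), *Spaca4* (-0.67), *Izumo1* (-0.65) and *Spaca3* (-0.65). *Acr*, acrosin, the main serine protease of the acrosome, had an FPKM of 228 in *Tdrd6*+/- and 213 in *Tdrd6*-/- cells (-0.10). *Acr*, *Acrv1*, *Spaca1* and *Izumo1* are also round spermatid markers above, so the medians of these lists are not separate results. *Pcsk4* is in both the ADAM3 and the acrosomal list. *Clgn* is also a pachytene marker, and *Spink2* of the acrosomal list is also among the protease inhibitors below. Over all genes, taken by 1 transcript each, 7.70% were lower and 5.84% higher by more than 1.5-fold, and the median was -0.00680.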

How the data were processed

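RNA from 4 *Tdrd6*-/- and 4 *Tdrd6*+/- preparations enriched for round spermatids was read as single-end reads of 75 or 76 nt (the sources differ). Reads were aligned to mm9 with TopHat2 2.0.9, Bowtie2 and Ensembl release 67, and assembled with Cufflinks 2.1.1. This follows the submitters' processing notes and the methods. The authors deposited FPKM values from Cuffdiff, which combined the 4 libraries of a genotype. The 3 tables divide transcripts by 3′ UTR length. They also hold log2 fold changes, a test statistic score, and p-values and q-values of the authors' own comparison, which were deposited by the authors but not used here. The tables hold no read counts or depth, and single libraries were not analysed here, so no interval or test was computed. The labels describe poly-dT selection and the methods removal of ribosomal RNA, which can favour different transcripts. How Cuffdiff scaled the libraries and shared reads between isoforms is not given in the sources used here.

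Of 19882 entries each transcript was counted once. Log2 ratios were taken with a pseudocount of 0.1 FPKM, which understates differences of low transcripts, and counted past 1.5-fold where the higher genotype had an FPKM of at least 1. Lengths, exons and coding sequences came from GENCODE M1, which held 18894 of the transcripts and 73 of the members. Named are the 20 most abundant member genes, those past 1.5-fold, genes with several transcripts, *Prss51* and the members nearest the threshold, and others as members of families or lists. Members and lists were chosen with earlier results of these data known. Python 3.11.15, numpy 2.4.6, pandas 2.3.3 and Biopython 1.88 were used, and the counting was tested on simulated data. Alternatives changed the pseudocount, minimum, fold, scaling and choice of transcripts.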

Additional observations from a re-analysis of the deposited data

How the results depend on the processing

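No paired analysis was possible because the deposited columns hold 1 pooled value per genotype, and for the same reason no replicate could be left out. The number of members past 1.5-fold was 15 of 61. Under the alternatives, which held 47 to 74 members, it lay between 10 and 20. The exception was a threshold at a 25% difference, which gave 31, with 7 higher and 24 lower. At that threshold 22.9% of all transcripts were higher and 22.7% lower. With a fold threshold of 2 the number was 10, with 1 higher and 9 lower, against 2.73% higher and 3.05% lower over all transcripts. With a pseudocount of 1 FPKM the KLK median log2 ratio was -0.94. Centred on the median of the same 3′ UTR table, the medians were -0.31 for PRSS, -1.02 for KLK and 0.22 for TMPRSS. Against transcripts of like length, a setting chosen after seeing the data, they were -0.26, -0.89 and 0.31. Without transcripts sharing over 5% of their 75-base windows, also chosen afterwards, the median of all members was -0.19 and that of KLK -0.62, and 11 members were past 1.5-fold. Over 10 alternatives the ADAM median ranged from 0.11 to 0.25, the PRSS median from -0.48 to -0.26 and the KLK median from -1.21 to -0.62, so none of these changed sign. With 1 transcript per gene no member was higher, because the *Adam5* transcript is a minor one. No ADAMTS transcript met the minimum, and without it their median was -0.03 over 4. No member past 1.5-fold changed sign under any alternative. Without read counts the precision of low members such as *Klk1b3*, *Klk1b5* and *Tmprss9* could not be given.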

Other observations

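Of 22 protease inhibitor genes 12 were in the tables and 11 met the minimum, with a median log2 ratio of -0.04. None of the 11 passed 1.5-fold, where 7.70% of all genes were lower and 5.84% higher, so a count of 0 in so short a list is near the background. *Spink2*, the acrosin inhibitor of the acrosome, had an FPKM of 1243 in *Tdrd6*+/- and 995 in *Tdrd6*-/- cells (-0.32), and *Pebp1*, a phosphatidylethanolamine-binding protein, had 2729 and 1926 (-0.50). *Serpinb6a*, an intracellular serpin, had 35.0 and 43.3 (0.31). *Spint2*, a Kunitz inhibitor of membrane serine proteases, had 69.9 and 55.6 (-0.33), and the tissue inhibitor of metalloproteases *Timp2* had 3.37 and 3.31 (-0.03).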
